A study of Zea mays with 6 samples.

Results

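The genes described here are 5 maize genes of the dehydrin and LEA (late embryogenesis abundant) kind, out of 109715 gene identifiers measured. They are dhn1 (GRMZM2G079440, also rab17 and lea2), dhn2 (GRMZM2G373522, which RefSeq also lists as dehydrin3), mlg3 (GRMZM2G096475, a group 3 LEA gene) and the genes GRMZM2G147014 and GRMZM2G098750, which were taken into the set as further dehydrins. RefSeq holds an entry for all 5 but gives the last pair no name or product, so their class was not checked here. The genes were selected on their control and drought levels in these same libraries, with the opposite direction of leaf and root in view, so their levels and ratios are a description and carry no test.

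Dehydrins are small, very hydrophilic proteins without a fixed fold that carry a lysine-rich segment, and they are thought to shield membranes and other proteins when a cell loses water. Group 3 LEA proteins carry a repeated short motif and can form helices as they dry. In cereals these genes are known to be expressed late in seed maturation and, in vegetative tissue, upon water loss or upon treatment with abscisic acid (ABA), and rab17 takes its name from its response to ABA.

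The libraries were made from 3 tissues (leaf, stem, root) of ZD619, a maize hybrid described as drought resistant. Poly(A) RNA was isolated from total RNA before the libraries were built. The samples are labelled wild type with an age of 2-3 leaves. In the paper 2-3 leaves is the stage at which the seedlings were thinned, and ZD619 is pictured under both treatments at a later leaf stage. Soil water stood at 80% of its relative content for control plants. Drought plants were left unwatered until it had dropped to 35%, and it was then held there for some days. Every tissue and treatment had 1 library, with RNA taken from several plants together, 6 libraries in all, so no value has an error between replicates and no p-value can be given. Levels are FPKM, fragments scaled to transcript length and to the mapped fragments of the library, which allows levels of different genes to be compared. Each tissue has a table of its own, and how the tables were scaled to each other is not stated, so levels are set side by side across tissues with that limit.

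The labelled tissues were checked on marker genes. The summed level of 6 photosynthesis markers lay between 6680.65 and 15655.4 FPKM in the leaf libraries and at 10.9 FPKM or less in the root libraries. The stem libraries held these leaf markers at 5963.22 and 6930.46 FPKM. Markers of stem meristem were absent there: 6 of them summed to 0.660 FPKM at most in stem, with kn1 listed at 0 in all 6 libraries, and to 32.4 and 26.7 FPKM in root. Of 6 root markers, the aquaporin genes pip2-5 and TIP2-3 were above 10 FPKM in both root libraries and under 1 FPKM in all others, and rtcs1 was above 1 FPKM in root alone. The root hair gene rth3 did not separate the tissues as well, with 10.2 FPKM in leaf drought and 13.0 FPKM in root control, and nrt2 and nas1 were under 0.2 FPKM or at 0 in all 6 libraries. FPKM summed to 544251 in the root library labelled control and to 908668 in the root library labelled drought, where 1 gene, GRMZM2G581850, made up 9.55% of the sum.

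In leaf, dhn1, dhn2, GRMZM2G147014 and mlg3 were higher in the drought library, and GRMZM2G098750 was near 0 in both. In root all 5 genes were higher in the library labelled control. In stem no gene exceeded 13.9 FPKM and the 3 measurable ones differed by less than 2-fold. Since genes known to respond to water loss were highest in a library labelled well-watered, the root direction rests on the root labels. Genes of the lists below went both ways in root. RAB15 and DBP4 were higher in the drought library of both leaf and root, with root log2 ratios of 0.88 and 1.22 (0.1 FPKM added). The root ratio of RAB15 was within 2-fold, and whether RAB15 is an LEA or seed maturation gene was not checked. Both root ratios are smaller once the FPKM sums of the root libraries are made equal. That of DBP4 was then also within 2-fold. Lea14A and EMB5 fell in root, as did 9 protein phosphatases 2C. The labels were not tested.

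The level of dhn1 was 2.46 FPKM in leaf control and 184 FPKM in leaf drought. In stem it was 0.370 FPKM in control and 0.188 FPKM in drought. In root it was 678 FPKM in the library labelled control and 3.03 FPKM in the library labelled drought. The gene was thus near the top of 2 libraries, leaf drought and root control, and at 3.03 FPKM or less in the other 4. It was the 44th highest gene of the root control library and the 20678th of the root drought library. The log2 ratio of drought over control was 6.23 in leaf. In root the control level was 224-fold higher (log2 ratio -7.81).

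The level of dhn2 was 3.87 FPKM in leaf control and 68.1 FPKM in leaf drought. In stem it was 6.49 FPKM in control and 9.14 FPKM in drought. In root it was 811 FPKM in the library labelled control and 158 FPKM in the library labelled drought. Unlike dhn1, this gene kept a high level in both root libraries, at place 31 in root control and place 801 in root drought. The log2 ratio of drought over control was 4.14 in leaf and 0.49 in stem, and -2.36 in root.

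GRMZM2G147014 was at 9.96 FPKM in leaf control and 97.9 FPKM in leaf drought. It was at 9.89 FPKM in stem control and 13.9 FPKM in stem drought, and at 432 FPKM in root control and 229 FPKM in root drought. It was the most evenly expressed of the 5 genes, never under 9.89 FPKM, and it led the others in leaf control, in both stem libraries and in root drought. The leaf rise was 9.82-fold (log2 ratio 3.30). In root the drought level was 53.2% of control (log2 ratio -0.91), a difference of less than 2-fold.

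The group 3 LEA gene mlg3 was listed at 0 in leaf control and at 0.615 FPKM in leaf drought. In stem it was at 0.0548 FPKM in control and 0.0414 FPKM in drought. In root it was at 64.5 FPKM in the library labelled control and 0.0725 FPKM in the library labelled drought. The root library labelled control was therefore the only one of the 6 in which mlg3 exceeded 1 FPKM. The log2 ratio in root was -9.80, and the low drought value behind it leaves its size uncertain, since it was -5.93 with 1 FPKM added to both values. Among 14527 genes with at least 10 FPKM in a root library, the fall of mlg3 ranked at place 27 and that of dhn1 at place 40.

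GRMZM2G098750 reached 6.63 FPKM in the root library labelled control. In the other 5 libraries it lay at or under 0.0548 FPKM, and it was listed at 0 in stem drought. Its leaf values of 0.0447 FPKM in control and 0.0548 FPKM in drought gave a log2 ratio of 0.29. Ratios of genes this low gathered around few values: of 1247 leaf genes under 0.15 FPKM in both libraries, 32.9% lay within 0.1 of a log2 ratio of 0.2. No change in leaf can be read from such values. The root log2 ratio was -7.05 without and -2.86 with an added 1 FPKM.

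**Figure D1:**
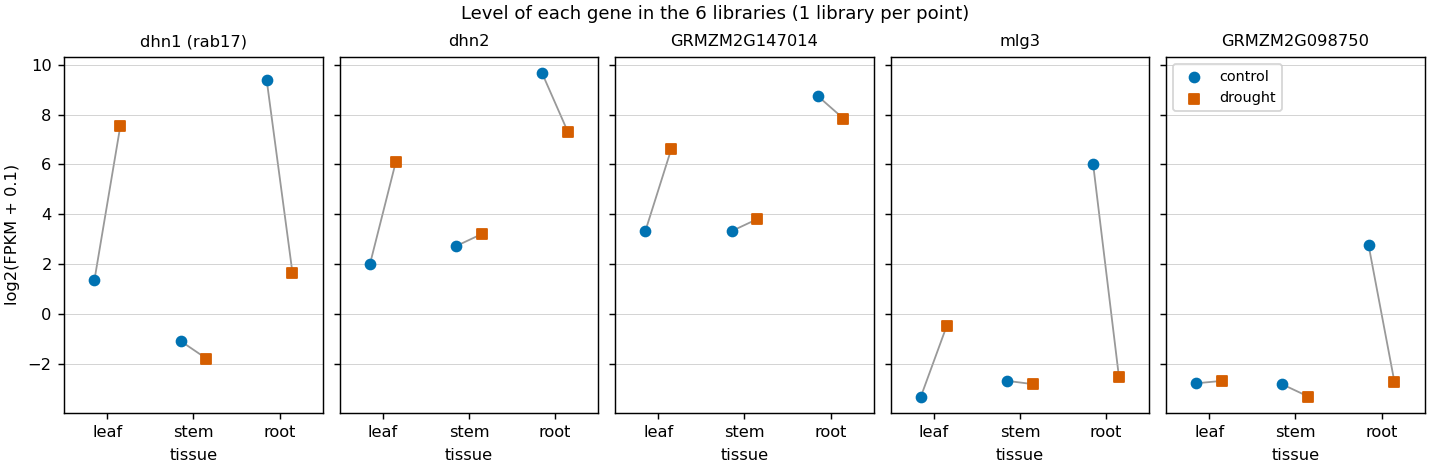
Level of the 5 genes in each library, as log2(FPKM + 0.1) on the vertical axis, with tissues on the horizontal axis; circles are control libraries and squares drought libraries, 1 library each, joined by a line within a tissue. The line rises in leaf for dhn1, dhn2, GRMZM2G147014 and mlg3, and runs down in root for all 5 genes, from 678 to 3.03 FPKM for dhn1.

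By the ratio of drought over control, 4 of the 5 genes rose more than 2-fold in leaf and 0 fell. Among these 4, mlg3 was listed at 0 in control, so it has no ratio and was counted as past the limit. The count was 3 with 1 FPKM added. For comparison, 15.1% of the 37063 leaf genes whose mean over the pair reached 0.1 FPKM rose and 14.4% fell more than 2-fold, with 0.1 FPKM added to both values. In this filtered comparison GRMZM2G098750 dropped out, and the other 4 genes had a median log2 ratio of 3.69 against -0.01 over all genes. Since the genes were chosen on these ratios, nothing is read from the difference.

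In stem, 0 of the 5 genes rose and 1 fell more than 2-fold, the latter being GRMZM2G098750, which went from 0.0401 FPKM to 0. Over 36265 stem genes, 15.8% rose and 15.2% fell. The 3 genes that passed the filter, dhn1, dhn2 and GRMZM2G147014, were all within 2-fold, and dhn1, at 50.9% of control, lay just inside this limit. Its stem levels of 0.370 and 0.188 FPKM are too low to carry a direction. The median log2 ratio of the 3 genes was 0.49, against 0.06 over all stem genes.

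In root, 4 of the 5 genes fell more than 2-fold and 0 rose, against 16.1% falling and 26.2% rising among 37859 root genes. GRMZM2G147014 fell just short of the 2-fold limit at 1.88-fold, and the smallest fall past the limit was that of dhn2 at 5.14-fold. The median log2 ratio of the 5 genes was -5.49 with 0.1 FPKM added. It is the value of GRMZM2G098750, which was -7.05 with nothing added and -2.86 with 1 FPKM added. Over all root genes the median was 0.27, so the falls stood against a table in which the middle gene was listed higher in drought. Of the root genes past 2-fold, 62.0% rose. This share was 49.6% after the median was subtracted and 31.3% after the FPKM sums of both root libraries were made equal, while all 5 genes stayed lower in drought under either scaling. With the median subtracted GRMZM2G147014 also passed 2-fold, at a log2 ratio of -1.18.

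**Figure D2:**
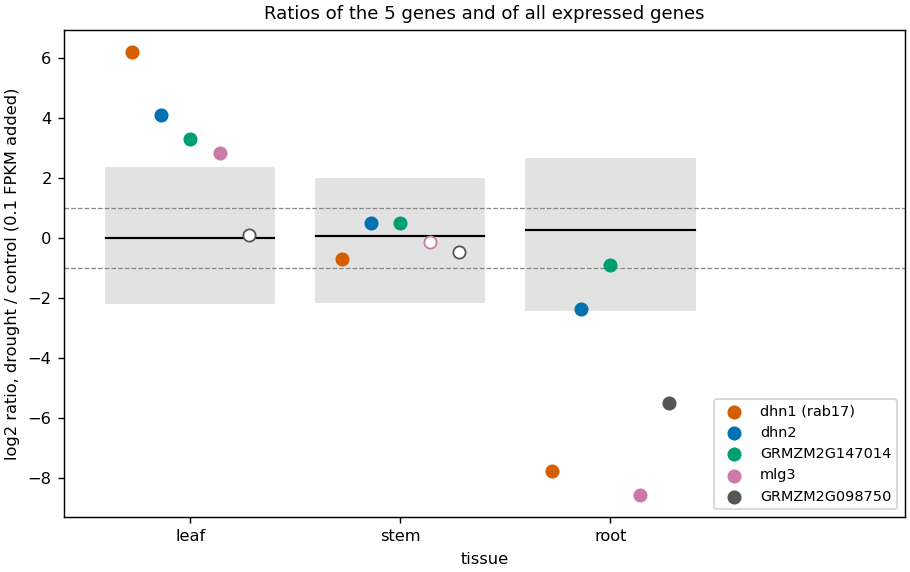
Log2 ratio of drought over control (vertical axis, 0.1 FPKM added to both values) of the 5 genes in each tissue (horizontal axis), 1 ratio of 2 libraries per point; grey bars span the 5th to 95th percentile of all genes whose mean reached 0.1 FPKM, black lines are their medians, dashed lines mark 2-fold and open points are genes under that mean. The 4 filled leaf points lie above the grey bar and all stem points within it, and in root dhn2 and GRMZM2G147014 lie within the bar while dhn1, mlg3 and GRMZM2G098750 lie below it.

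The genes differed in how far leaf and root went apart. Of the 4 genes that passed the filter in both tissues, dhn1, dhn2 and mlg3 rose in leaf and fell in root by more than 2-fold each. This pattern was found in 3.34% of the 32804 genes that passed in both. It was widest in dhn1, where the leaf and root log2 ratios with 0.1 FPKM added were 6.17 and -7.76. For dhn2 they were 4.10 and -2.36, and for mlg3 2.84 and -8.55, the leaf value resting on a control listed at 0. All 5 genes had their highest level in the root library labelled control. For the 4 of them with at least 10 FPKM in at least 1 library, which leaves out GRMZM2G098750, the matching share was 10.6% of 18706 genes. Together the 5 genes amounted to 1992 FPKM there, or 0.366% of the library's sum, compared with 390 FPKM in root drought, 351 FPKM in leaf drought and 23.3 FPKM or less in the other 3 libraries.

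The proportions among the genes also shifted. The levels of dhn2 and dhn1 were close in root control (811 and 678 FPKM), but dhn2 stood at 52.1 times the level of dhn1 in root drought and 48.5 times in stem drought, libraries in which dhn1 was low. In leaf drought dhn1 was the higher gene, with dhn2 at 0.369 of its level. Against GRMZM2G147014, dhn2 stood at 0.656 and 0.658 in the stem libraries, 0.687 in root drought and 0.696 in leaf drought, but at 0.389 in leaf control and at 1.88 in root control. So dhn2 and GRMZM2G147014 kept nearly one proportion in 4 libraries, and dhn1 did not keep one with either.

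Between tissues of control plants, dhn1 stood 276-fold higher in root than in leaf, dhn2 210-fold and GRMZM2G147014 43.3-fold. Between tissues of drought plants, root stood 2.31-fold above leaf for dhn2 and 2.34-fold for GRMZM2G147014, and dhn1 was higher in leaf, with root at 0.0164 of the leaf level. Stem was the lowest tissue for dhn1 in both treatments.

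The genes nearest to dhn1 in pattern were sought by the distance between their 3 log2 ratios, in leaf, stem and root, over 18702 genes with at least 10 FPKM in at least 1 library. The nearest were GRMZM5G849427 at a distance of 0.85, GRMZM2G145544 at 1.16, GRMZM2G065227 at 1.31, GRMZM2G063287 at 1.83 and GRMZM2G031033 at 2.25, all without a name in RefSeq. GRMZM5G849427 was at 5.90 FPKM in leaf drought and 28.5 FPKM in root control and listed at 0 in the other 4 libraries. GRMZM2G031033, the strongest of them, had 0.212 FPKM in leaf control against 11.8 FPKM in leaf drought, and 126 FPKM in root control against 1.14 FPKM in root drought. Only this last gene was also among the nearest 5 when 1 FPKM was added. Of the set itself, mlg3 was at a distance of 3.47 from dhn1 with 12 other genes nearer, and GRMZM2G147014 at 7.53 with 334 nearer.

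Among 4837 genes with a RefSeq name, the nearest were pco124370, pco110563, ZCN6, PP2C8 and PP2C13. The first of these, GRMZM2G125813, rose in leaf (1.87 to 49.9 FPKM) and fell in root (139 to 0.902 FPKM). ZCN6 (GRMZM2G132880), of the family of phosphatidylethanolamine-binding proteins, was at 82.4 FPKM in root control and under 1 FPKM in all other libraries. PP2C8 and PP2C13 are protein phosphatases of type 2C, a family of which a branch holds back the ABA signal and is itself switched on by ABA.

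Of 6 other genes listed as LEA or seed maturation by their RefSeq names, 3 passed the filter in leaf and all 3 rose, against 15.1% of all genes. In root, where 26.2% of all genes rose and 16.1% fell, the list had 3 falls and 2 rises. Several of these rested on levels under 1 FPKM, namely glb1 in leaf and root and the root rises of glb2 and ole1. With 1 FPKM added, 1 leaf rise (RAB15) and 2 root falls were left and 0 root rises. Lea14A (GRMZM2G050607), an atypical LEA gene, rose in leaf (1.30 to 3.12 FPKM) and fell in root (33.1 to 5.13 FPKM). In stem it was at 1.52 FPKM in control and 0.864 FPKM in drought. EMB5 (GRMZM2G162659), a group 1 LEA gene of the embryo that was picked out after its values were seen, was at 13.2 FPKM in root control, at 0.0863 FPKM in root drought and listed at 0 in the other libraries. RAB15 entered the list on its name alone, and whether it is an LEA or seed maturation gene was not checked. Also picked out afterwards, it was far more abundant at 625 to 6421 FPKM and rose 1.47 on the log2 scale in leaf. It did not share the root direction of Lea14A and EMB5, with 1787 FPKM in root control and 3301 FPKM in root drought, a log2 ratio of 0.88.

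As LEA genes are also genes of the seed, seed markers were read in the same libraries. Of 21 markers, 14 were listed at 0 in root control and 14 in root drought, and their summed levels were 9.47 and 5.44 FPKM. In root control the storage genes were near 0, glb1 at 0.206 FPKM, glb2 at 0.182 FPKM, zp27 at 0.124 FPKM and ole1 listed at 0. The markers at 1 FPKM or more there were bt2, sh2 and FL1, which were also found in the leaf and stem libraries.

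The genes of the ABA pathway were grouped by their role. For synthesis, vp14, the cleavage enzyme that starts the path from carotenoids to ABA, rose in leaf (1.76 to 24.2 FPKM) and was at 3.75 FPKM in root control and 3.46 FPKM in root drought. It is named outside the rule for lists, which 0 synthesis genes met. Of 4 synthesis identifiers, 1 rose in leaf and 1 in stem, 1 fell in each of these tissues, and 0 passed 2-fold in root (1 fell with equal sums). Their median log2 ratios were -0.36, -0.09 and -0.18 in leaf, stem and root. The falls were those of a vp9 identifier, GRMZM2G454928 (25.9 to 10.4 FPKM in leaf, 30.2 to 10.2 FPKM in stem). Over all genes, 15.1% rose and 14.4% fell in leaf, 15.8% and 15.2% in stem, and 26.2% and 16.1% in root. Single genes of a list of 4 cannot be set apart from these shares.

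Of 26 protein phosphatases 2C named in RefSeq, 25 passed the filter in leaf and 9 rose with 0 falls, where 15.1% of all genes rose and 14.4% fell. Of 25 in root 9 fell and 3 rose, against 16.1% and 26.2% of all genes, or 11 fell and 1 rose with the median subtracted or the sums made equal. Of 23 in stem 1 rose and 4 fell, against 15.8% and 15.2% of all genes. Of the 9 leaf rises, 8 were among the root falls, the exception being PP2C17, which rose in root as well. The share over all genes was taken over those that passed the filter in both tissues, of which 3.34% rose in leaf and fell in root. It is to be set beside 8 of the 25 phosphatases that passed in both, and not beside 8 of the 9 leaf rises. PP2C4 (GRMZM2G177386) rose in leaf (34.4 to 119 FPKM) and fell in root (99.8 to 26.2 FPKM). PP2C13 (GRMZM2G159811) did the same at 4.32 to 28.2 FPKM in leaf and 42.5 to 1.35 FPKM in root. PP2C16 (GRMZM2G082487) had leaf levels of 1.62 and 33.1 FPKM and root levels of 10.9 and 2.71 FPKM, and PP2C3 (GRMZM2G059453) leaf levels of 30.2 and 66.3 FPKM and root levels of 42.7 and 10.2 FPKM, control first. Their order of leaf up and root down was thus that of dhn1, at smaller ratios. The median log2 ratio of the list was 0.72 in leaf, -0.12 in stem and -0.09 in root, so most of its members did not follow.

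The ABA receptors of the PYL family, when ABA is bound, inhibit the branch of phosphatases 2C that holds back the ABA signal. The phosphatases listed above were matched by name and not limited to this branch. The receptors went the other way in root. Of 9 that passed the filter there, 7 rose and 0 fell (6 and 0 with equal sums), against 26.2% and 16.1% of all root genes, with a median log2 ratio of 2.75. In leaf 1 rose and 2 fell of 8, against 15.1% and 14.4% of all genes, and 0 passed 2-fold in either direction with 1 FPKM added. In stem 4 of 8 fell and 0 rose, against 15.2% and 15.8% of all genes, or 2 fell with 1 FPKM added. PYL7 (GRMZM2G144224) was at 4.78 FPKM in root control and 106 FPKM in root drought, and went from 2.68 to 0.890 FPKM in leaf. PYL5 (GRMZM2G057959) rose from 0.279 to 14.5 FPKM in root, and in leaf had 0.340 FPKM in control and 0 in drought. PYL11 (GRMZM2G133613) rose in both root (2.35 to 16.3 FPKM) and leaf (0.270 to 0.872 FPKM).

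Of 7 SnRK2 kinases, which carry the ABA signal on to transcription factors, 1 fell in leaf and 0 passed 2-fold in stem, and root had 1 rise and 1 fall. Their median log2 ratios were -0.12, -0.19 and 0.44. Over all genes, 15.1% rose and 14.4% fell in leaf, 15.8% and 15.2% in stem, and 26.2% and 16.1% in root. SnRK2.7 (GRMZM2G155593) fell in leaf (3.76 to 0.724 FPKM) and rose in root (7.39 to 25.5 FPKM). Among 11 factors of ABA and dehydration, 9 passed the filter in leaf and 10 each in stem and root. Of these, 3 rose and 1 fell in leaf, and stem and root had 2 rises and 0 falls each, beside the same shares over all genes. With equal sums root had 1 rise and 2 falls, and with the median subtracted it had 1 rise. Their median log2 ratios were 0.61, 0.07 and 0.24. DBP4 (GRMZM2G380377) rose in leaf (0.299 to 8.38 FPKM) and in root (10.03 to 23.5 FPKM). The gene vp1, the seed maturation factor that acts on LEA genes in the embryo, was listed at 0 in all 6 libraries. The factor dbf1, known to bind the rab17 promoter and picked out afterwards, rose from 43.8 to 254 FPKM in leaf, while in root it was at 153 FPKM in control and 174 FPKM in drought.

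**Figure D3:**
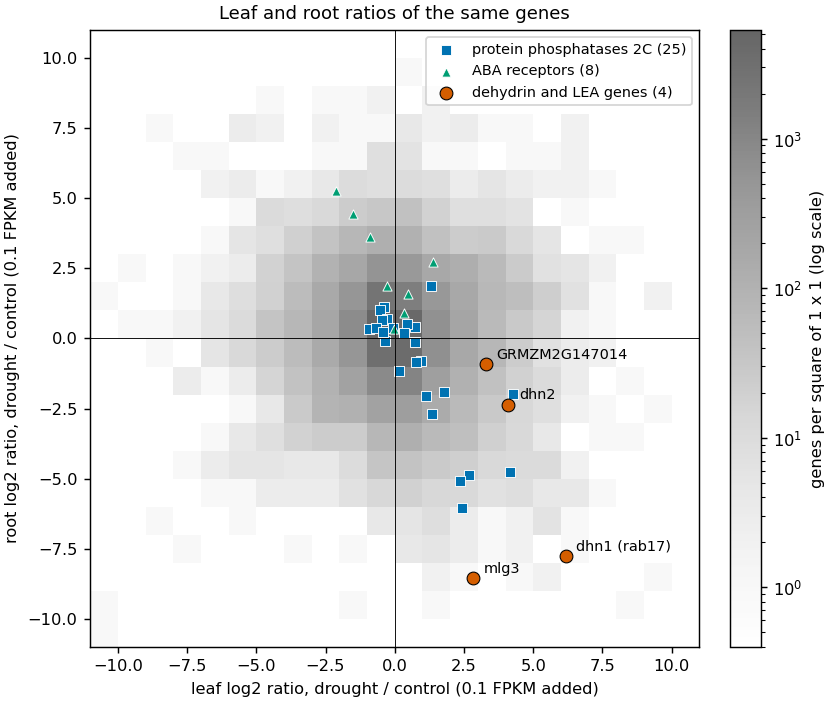
Leaf log2 ratio (horizontal axis) against root log2 ratio (vertical axis) of drought over control with 0.1 FPKM added; grey squares count all genes that passed the filter in both tissues on a log scale, and points are 4 of the 5 dehydrin and LEA genes, 25 protein phosphatases 2C and 8 ABA receptors. The dehydrin and LEA genes and 8 phosphatases spread toward the lower right, a rise in leaf with a lower level in root drought, and all 8 receptors lie above 0 in root.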

How the data were processed

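The authors used TopHat, Cufflinks and Cuffdiff with the B73 genome; versions and genome release are not given in the sources used here. The deposited values are FPKM, with a table per tissue. The deposited log2 ratio column and the published p-values were not used, and ratios were recomputed from FPKM. Fragment counts behind a value are unknown.

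Ratios of single genes had no pseudocount, and none is given against a value listed at 0, which counted as past the limit. Here "rose" and "fell" mean more than 2-fold between 2 libraries. Background shares, lists and distances used genes whose pair mean reached 0.1 FPKM (distances: at least 10 FPKM in 1 library) and 0.1 FPKM added. Members and lists were chosen with earlier results of these data known. By rule, genes named from a list are the up to 4 highest with at least 10 FPKM in 1 library and past 2-fold in leaf and root. The 5 nearest to dhn1 and all members are also named. Other genes of the lists, such as vp14, vp9 and vp1, are named outside this rule. Lists were matched on RefSeq names (assembly Zm-B73-REFERENCE-NAM-5.0, 18778 identifiers or 17.1%), and names meaning other genes (such as a hemoglobin and rab2 GTPases) were removed, with the planned EM names narrowed to emb5. The build differs, so no coordinates are given, and a planned search of protein and promoter sequences was not made. Fold steps were run on simulated pairs without noise, from genes at 1 FPKM or more. That checks the calculation only and does not cover lower values or spread between libraries. Python 3.11.15, pandas 2.3.3, numpy 2.4.6 and matplotlib 3.10.9 were used.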

Additional observations from a re-analysis of the deposited data

Results flagged for a closer look

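The genes below went more than 2-fold in opposite directions in leaf and root. With 1 library per tissue and treatment the difference was not tested. Values are the leaf minus the root log2 ratio, with 0.1 FPKM added. They were 13.93 for dhn1, 6.47 for dhn2 and 11.39 for mlg3. For Lea14A the value was 3.86. The phosphatases PP2C4, PP2C3, PP2C13 and PP2C16 had 3.72, 3.18, 7.56 and 6.24. With the opposite sign, PYL7 had -5.93, PYL5 had -7.41 and SnRK2.7 had -4.00. With 1 FPKM added to both values the leaf ratios of mlg3, Lea14A, PYL7 and PYL5 were within 2-fold, and those of mlg3 and PYL5 rest on a leaf library listed at 0.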

How the results depend on the processing

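The count of members past 2-fold, main values 4 in leaf, 1 in stem and 4 in root, stayed within 1.5 times in leaf and root under every alternative run. The leaf count was 3 with 1 FPKM added and 3 with a minimum of 1 FPKM in the higher library. The root count was 5 with the tissue median subtracted and 5 with equal library sums. In stem it was 0 with 1 FPKM added, 0 with 0.1 FPKM added and 0 with a minimum of 1 FPKM in the higher library, and 2 with the tissue median subtracted and 2 with equal library sums, where dhn1 (0.370 and 0.188 FPKM) was the gene added. None of the 52 alternative values of the 13 member ratios changed sign. Of 216 counts over the lists, 178 stayed within 1.5 times, and of 36 counts over all genes 17 did: with 1 FPKM added, 2494 leaf genes rose in place of 5588 and 2639 root genes fell in place of 6088, and with equal sums 11196 root genes fell. Of the 5 genes nearest to dhn1, 1 was kept with 1 FPKM added, and 3 of the 5 named ones. Fragment counts are not known for values under 0.1 FPKM, which hold mlg3 and GRMZM2G098750 in stem and in root drought. They also hold GRMZM2G098750 in leaf and mlg3 in leaf control. The paper gives aligned reads for each library, and its mapping rate was lowest in root drought.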
